A study of Mus musculus with 59 samples.

Results

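Glutamate and GABA receptor subunit genes were followed across all 12 groups of a mouse prefrontal cortex RNA-seq series. Members were the genes whose symbols name a subunit of the AMPA (Gria1 to Gria4), kainate (Grik1 to Grik5), NMDA (Grin), delta (Grid), metabotropic glutamate (Grm), GABA-A (Gabr with the letters a, b, g, d or e) and GABA-B (Gabbr) receptors. The deposited table held 39 such symbols among its 18088 genes, and 38 had a mean of at least 10 normalized counts over the libraries. Gabre, the GABA-A epsilon subunit, was the one below it. Of the 38 members, 33 are described, and every count and median of members below is over these: 4 AMPA, 5 kainate, 6 NMDA, 1 delta, 6 metabotropic glutamate, 9 GABA-A and 2 GABA-B genes. Grin3b, Grm6 and Gabra6 were not analysed here.

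Glutamate carries most fast excitation in the cortex through AMPA, kainate and NMDA receptors, which are ion channels, while metabotropic glutamate receptors act through G proteins. GABA carries inhibition through GABA-A receptors, which are chloride channels, and through GABA-B receptors, which are obligate dimers coupled to G proteins. Channel subunits are exchanged as the forebrain matures after birth: Grin2a gains on Grin2b, Grin3a declines, and the alpha subunits of GABA-A receptors change in their proportions.

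The tissue was prefrontal cortex, taken from C57BL/6J pups on postnatal day 25 and sequenced as messenger RNA. One genotype was wild type (WT); the other carries the label HT, for heterozygous loss of Myt1l, a zinc finger transcription factor of neurons. Through their dams' milk the pups received vehicle, the serotonin uptake blocker fluoxetine or lithium, which is used to stabilise mood, over 3 weeks from postnatal day 3 to 24. The 59 libraries formed 12 groups by genotype, drug and sex, with 5 libraries each and 4 for WT females given fluoxetine.

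Between 25088446 and 35858365 whole reads were recovered per library. Myt1l averaged 8030 ± 938 normalized counts (SD, n = 10) in libraries labelled HT and 7078 ± 255 (n = 10) in WT libraries, both under vehicle, so the label was not matched by a lower level of the gene and directions below are those of the labels. The labels do not say which pups shared a dam, so p-values measure the spread between these pups as if they were independent. Cortical excitatory neuron markers were present in all groups: 10 of 10 had a group mean of at least 10, and their summed level in the WT vehicle libraries ran from 65142 to 77453. Markers of the olfactory bulb, a neighbouring region, varied widely: their summed level was 198 to 4453 in WT vehicle, 247 to 2450 in HT vehicle, 1522 to 19727 in WT fluoxetine, 215 to 25711 in HT fluoxetine, 278 to 7352 in WT lithium and 189 to 2889 in HT lithium libraries. Of the 8 bulb markers, S100a5 and Barhl2 averaged under 10 in both vehicle groups and were at 0 in at least 1 vehicle library. Striatal projection neuron markers were highest in 5 libraries, which were HT fluoxetine female 2, HT fluoxetine male 2, HT vehicle female 3, HT vehicle male 3 and WT fluoxetine female 2. In bulk tissue, fewer cells of a type and less RNA per cell cannot be told apart.

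Levels are given first for WT vehicle libraries (n = 10), as normalized counts per kilobase of annotated exon so that genes can be compared; the exon length counts untranslated sequence whether or not it was used. Grin1, the obligatory NMDA subunit, was the highest of the 33 at 3342 ± 337 per kilobase (SD), followed by Gabbr1 at 3145 ± 98.3 and Gabbr2 at 2203 ± 194. The lowest of the 33 was Grin2d, an NMDA subunit known from interneurons and early development, at 70.1 ± 8.52. The highest and lowest of them differed 47.7-fold. Among the AMPA genes, Gria2, whose product limits calcium entry, stood at 2046 ± 142, Gria3 at 1968 ± 110 and Gria1 at 1679 ± 101; the ranges of Gria2 and Gria3, and of Gria3 and Gria1, overlapped. Gria4 was lower than these 3 in all libraries, at 539 ± 39.7. Grik5, which encodes a high-affinity kainate subunit that needs a partner from Grik1 to Grik3, held 71.6% of the kainate sum at 2001 ± 276, and Grik1 was the lowest of that family at 92.4 ± 6.69. Grin2b stood at 743 ± 38.6 and Grin2a at 394 ± 33.5, and their ranges did not overlap.

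Among the metabotropic receptors, Grm5, which couples to Gq, stood at 714 ± 46.2 per kilobase, and its range overlapped that of Grm3 (636 ± 56.3). Grm2, the other Gi-coupled group II receptor, reached 462 ± 77.5 and Grm7 380 ± 34.2. Grm4 (141 ± 25.0) and Grm8 (132 ± 15.05) were low, with overlapping ranges. Grm4, Grm7 and Grm8 encode group III receptors, which mostly sit on axon terminals. The GABA-A alpha genes described were Gabra3 (1294 ± 88.0), Gabra4 (1001 ± 131), Gabra5 (613 ± 57.6) and Gabra2 (367 ± 73.4). Beta and gamma subunits complete the channel with the alpha subunits. Gabrb2 stood at 961 ± 100.3 and Gabrb1 at 330.2 ± 29.3, and Gabrg1 at 213 ± 35.9 and Gabrg3 at 132 ± 4.21. Grid1, a delta receptor that binds cerebellins across the synapse, stood at 296 ± 27.4. Gabrd, whose product forms extrasynaptic receptors with the alpha-4 subunit, stood at 907 ± 68.5. Spread over the 10 libraries was smallest for Gabbr1, with a coefficient of variation of 3.13%, and widest for Gabra2 at 19.98%, with a median of 8.86% over the 33 members.

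The first comparison, libraries labelled HT against WT under vehicle, asks how receptor expression differed by genotype label without a drug. No member passed the threshold (limma, Benjamini-Hochberg adjusted p under 0.05, the rule for every call below), and 0% of the 16546 tested genes did. Unadjusted, 9 of the 33 had p under 0.05, and 1618 of all tested genes did. The median log2 difference of the members was -0.06, against 0.0003 for all tested genes, with 18 members below 0. Grin3a, a subunit that lowers the calcium flow of NMDA receptors, came closest. Its counts ran from 1133 (lowest) through 1571 (median) to 1693 (highest) in HT libraries and from 1632 through 1773 to 1964 in WT libraries. All 10 HT libraries lay below the WT mean although the ranges overlapped, and the log2 difference was -0.26 ± 0.07 (SE; limma adjusted p = 0.282). Gabrd went the other way, from 1804 through 1989 to 2733 in HT and from 1499 through 1726 to 1969 in WT. All 10 HT libraries were above the WT mean, with a log2 difference of 0.26 ± 0.07 (limma adjusted p = 0.3001). Grik2, a low-affinity kainate subunit, had a log2 difference of -0.17 ± 0.06 and 8 of 10 HT libraries below the WT mean (limma adjusted p = 0.414).

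Subunit ratios compare genes within a library, so that the size factor cancels. The 3 ratios described were examined in 5 comparisons by a two-sided exact permutation test within sex, with Benjamini-Hochberg adjustment over all 30 ratio tests of the design. Of the 15 tests described, 6 had an adjusted p under 0.05. A ratio shows unequal change and not which gene moved, and since the exon lengths differ its level is no ratio of molecules.

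Under vehicle, 2 of the 3 ratios differed between libraries labelled HT and WT. The Grin2a to Grin2b ratio ran from 0.322 (lowest) through 0.349 (median) to 0.455 (highest) in HT and from 0.293 through 0.325 to 0.341 in WT libraries. All 10 HT libraries were above the WT mean, and the mean was 0.355 ± 0.0400 (SD, n = 10) against 0.320 ± 0.0151. The log2 difference was 0.15 (exact permutation p = 0.00378, adjusted p = 0.0162). The limma log2 differences of the single genes were 0.02 ± 0.11 for Grin2a and -0.13 ± 0.09 for Grin2b, neither called. The Grin1 to Grin3a ratio was 9.94 ± 1.08 in HT and 8.29 ± 1.14 in WT libraries (SD, n = 10), higher than the WT mean in 9 of 10, with a log2 difference of 0.27 (exact permutation adjusted p = 0.0193). The ranges overlapped in both.

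Both HT vehicle libraries among the 5 highest in striatal markers bear on these values. Without those 5 libraries the Grin2a to Grin2b log2 difference was 0.09 (exact permutation adjusted p = 0.0454) and the Grin1 to Grin3a difference 0.23 (adjusted p = 0.05, no longer under the threshold). The Gria2 to Gria1 ratio did not pass, at 1.98 ± 0.214 in HT and 2.21 ± 0.191 in WT libraries (SD, n = 10; exact permutation adjusted p = 0.0520), though leaving out 1 library brought it under the threshold in 8 of 20 cases. With 5 libraries a group in each sex, Grin2a to Grin2b differed by 0.16 in females and 0.14 in males and Grin1 to Grin3a by 0.30 and 0.23, none of them called within a sex.

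**Figure D1:**
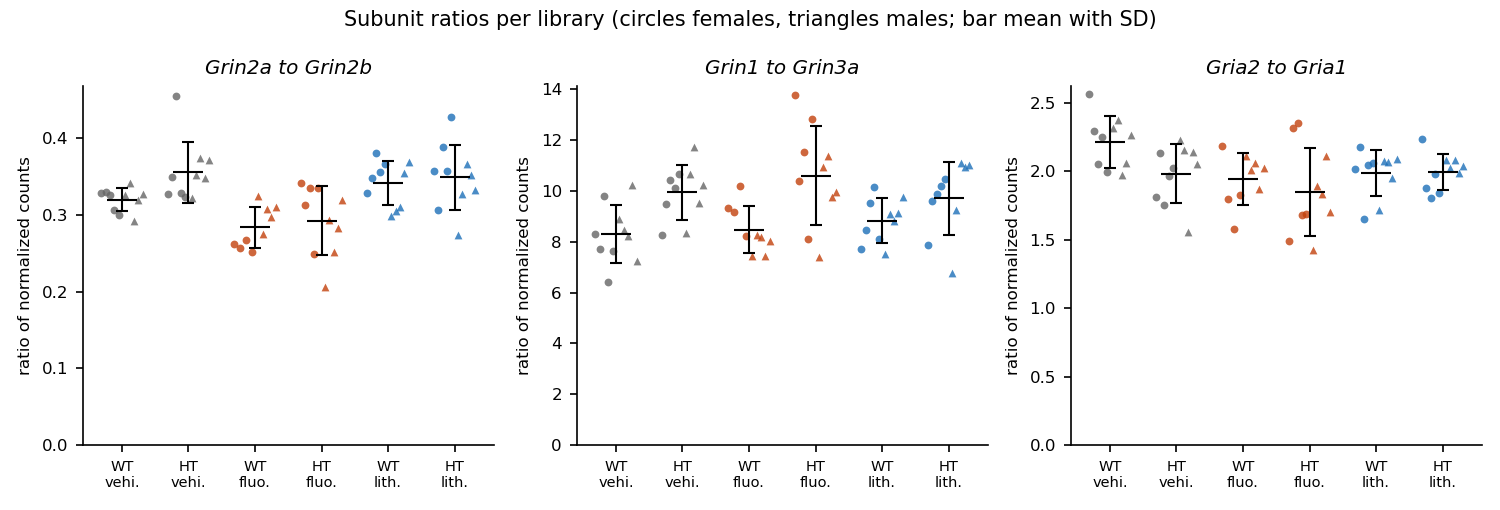
Subunit ratios in each of the 59 libraries, as ratios of normalized counts from 0 on the vertical axis, by genotype and drug (vehi., vehicle; fluo., fluoxetine; lith., lithium); circles are females, triangles males, and bars show the mean with SD. The Grin2a to Grin2b ratio is highest on average in HT vehicle libraries (0.355) and lowest in WT fluoxetine libraries (0.284).

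Fluoxetine against vehicle asks how receptor expression differed after 3 weeks of the drug in each genotype. In libraries labelled HT, 9 members rose and 7 fell, and 17 did not pass. The background was high: 29.2% of all tested genes were called, 14.6% higher and 14.6% lower. In WT libraries 6 members rose and 4 fell, against 14.9% of all genes called, 8.81% higher and 6.08% lower. The median log2 difference over the members was -0.04 in HT and -0.02 in WT, near that of all tested genes (-0.005 and -0.004). By family, the called members in HT were 1 of 4 AMPA genes, 4 of 5 kainate, 1 of 6 NMDA, 0 of 1 delta, 3 of 6 metabotropic, 5 of 9 GABA-A and 2 of 2 GABA-B genes. Bulb markers moved with the drug: all 8 were higher in both comparisons, with median log2 differences of 2.79 in HT and 3.25 in WT. Values of the members in a fit that holds the bulb marker level are given further down.

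**Figure D2:**
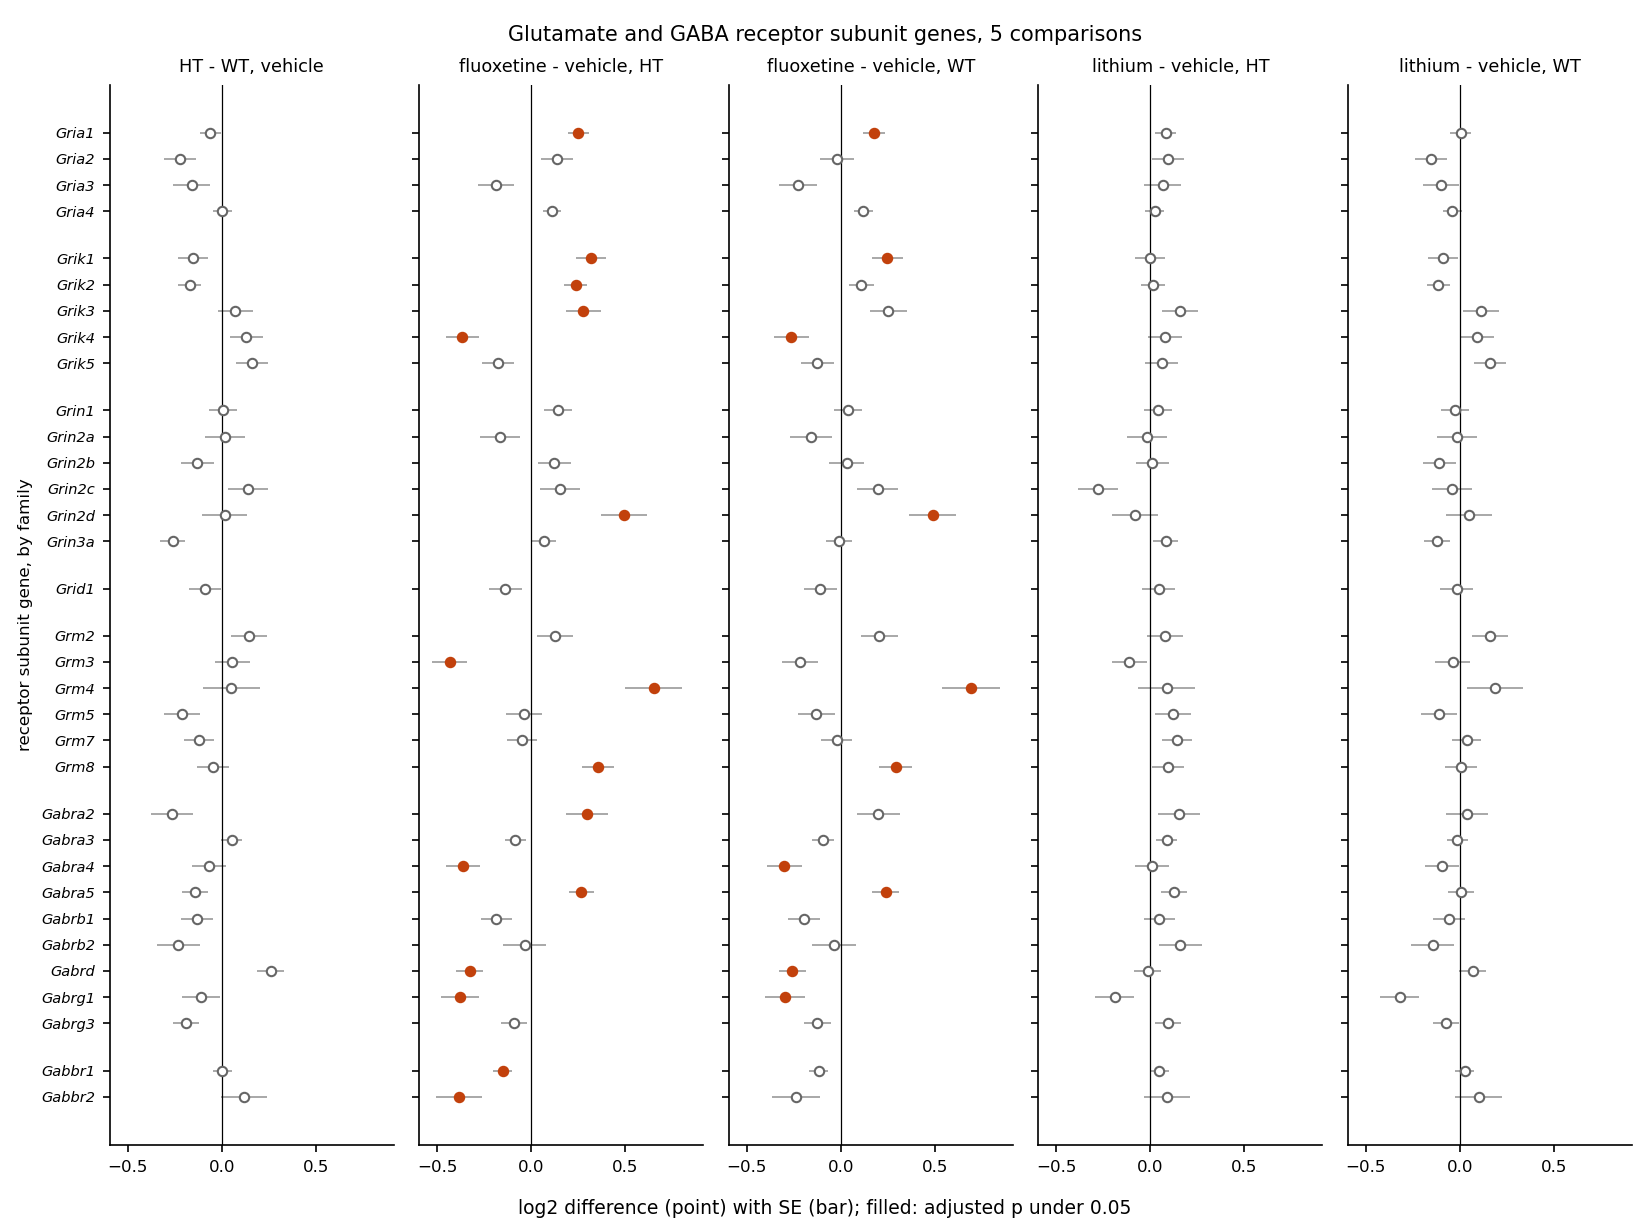
Log2 differences (points) with SE (bars) of the 33 members, grouped by receptor family, in 5 comparisons; filled points passed an adjusted p of 0.05. Filled points occur only in the 2 fluoxetine panels, 16 in HT and 10 in WT.

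Grm4 (chromosome 17, 27422387 to 27521403), an inhibitory receptor of axon terminals, rose most. Its counts ran from 673 (lowest) through 1127 (median) to 2846 (highest) in HT fluoxetine and from 633 through 810 to 938 in HT vehicle libraries. Counts in WT ran from 808 through 1106 to 1887 with fluoxetine and from 626 through 753 to 1017 with vehicle. Most fluoxetine libraries lay above the vehicle mean, 9 of 10 in HT and 9 of 9 in WT, while the ranges overlapped. For Grm4 the log2 difference was 0.65 ± 0.15 in HT (SE; limma adjusted p = 0.00121) and 0.69 ± 0.16 in WT (limma adjusted p = 0.00366). Grm8, another group III receptor, rose by log2 0.35 ± 0.08 in HT and 0.29 ± 0.09 in WT, and was above the vehicle mean in 9 of 10 and 8 of 9 libraries.

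Grm3 (chromosome 5, 9485541 to 9725170), a group II receptor that astrocytes also carry, fell in HT libraries. It ran from 890.0 through 1588 to 2363 with fluoxetine and from 1773 through 2027 to 2146 with vehicle. The fluoxetine libraries were spread more widely and 9 of 10 lay below the vehicle mean, with a log2 difference of -0.43 ± 0.09 (limma adjusted p = 0.000534). In WT it did not pass, at -0.22 ± 0.10 (limma adjusted p = 0.111), but the difference between the genotypes was not called (interaction -0.22 ± 0.13, limma adjusted p = 0.9996). Grm2, Grm5 and Grm7 passed in neither genotype.

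Grin2d (chromosome 7, 45831883 to 45878378) was the one NMDA gene called. Its counts ran from 390.3 through 573 to 1055 in HT fluoxetine and from 356 through 417 to 516 in HT vehicle libraries. In WT they ran from 412 through 583 to 901 with fluoxetine and from 381 through 426 to 565 with vehicle. In each genotype 8 fluoxetine libraries were above the vehicle mean, and the log2 differences were 0.49 ± 0.12 in HT and 0.49 ± 0.13 in WT (limma adjusted p = 0.00212 and 0.00819). The other NMDA genes did not pass: in HT, Grin1 had a log2 difference of 0.14 ± 0.07, Grin2a -0.17 ± 0.11, Grin2b 0.12 ± 0.09, Grin2c 0.15 ± 0.11 and Grin3a 0.07 ± 0.07.

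Gria1, the AMPA subunit most tied to activity-dependent insertion, rose. It ran from 9186 through 11084 to 12278 in HT fluoxetine and from 7092 through 9843 to 10262 in HT vehicle libraries, a log2 difference of 0.25 ± 0.06 (limma adjusted p = 0.000846) with 9 of 10 libraries above the vehicle mean. In WT it rose by log2 0.18 ± 0.06 (limma adjusted p = 0.0307). Gria2, Gria3 and Gria4 passed in neither genotype. Of the kainate genes, Grik1 rose in both genotypes (log2 0.32 ± 0.08 in HT and 0.25 ± 0.08 in WT), and Grik2 (0.24 ± 0.06) and Grik3 (0.28 ± 0.09) passed in HT. Grik4, the other high-affinity subunit, fell in both, by 0.37 on the log2 scale in HT and 0.26 in WT. Grid1, the delta receptor, passed in neither, with log2 differences of -0.14 ± 0.09 in HT and -0.11 ± 0.09 in WT (limma adjusted p = 0.233 and 0.431).

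Among GABA-A genes, Gabrd (chromosome 4, 155384980 to 155398112) fell. It ran from 1197 (lowest) through 1744 (median) to 2108 (highest) in HT fluoxetine and from 1804 through 1989 to 2733 in HT vehicle libraries. In WT it ran from 1218 through 1507 to 1700 with fluoxetine and from 1499 through 1726 to 1969 with vehicle. In HT 9 of 10 and in WT 9 of 9 fluoxetine libraries lay below the vehicle mean, with log2 differences of -0.33 ± 0.07 and -0.26 ± 0.07 (limma adjusted p = 0.000649 and 0.0154). Gabra4, its extrasynaptic partner, fell by 0.36 on the log2 scale in HT and 0.30 in WT. Gabrg1, a gamma subunit, fell by 0.38 in HT, where all 10 libraries lay below the vehicle mean, and by 0.30 in WT, where all 9 did. Gabra5, another extrasynaptic subunit, rose by log2 0.27 ± 0.07 in HT and 0.24 ± 0.07 in WT (limma adjusted p = 0.00295 and 0.0184), and Gabra2 passed in HT at 0.30 ± 0.11 (limma adjusted p = 0.0389). Gabra3, Gabrb1, Gabrb2 and Gabrg3 passed in neither genotype.

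Both GABA-B genes fell in HT. Gabbr2 (chromosome 4, 46662305 to 46991873), which carries the G protein coupling, ran from 4432 through 12691 to 15425 with fluoxetine and from 12012 through 13674 to 15682 with vehicle. A few fluoxetine libraries were far below the rest, 7 of 10 lay under the vehicle mean, and the log2 difference was -0.38 ± 0.12 (limma adjusted p = 0.0157). Gabbr1, which binds the ligand, changed by -0.15 ± 0.05 (limma adjusted p = 0.0205). In WT neither passed, at -0.24 ± 0.13 for Gabbr2 and -0.12 ± 0.05 for Gabbr1.

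**Figure D3:**
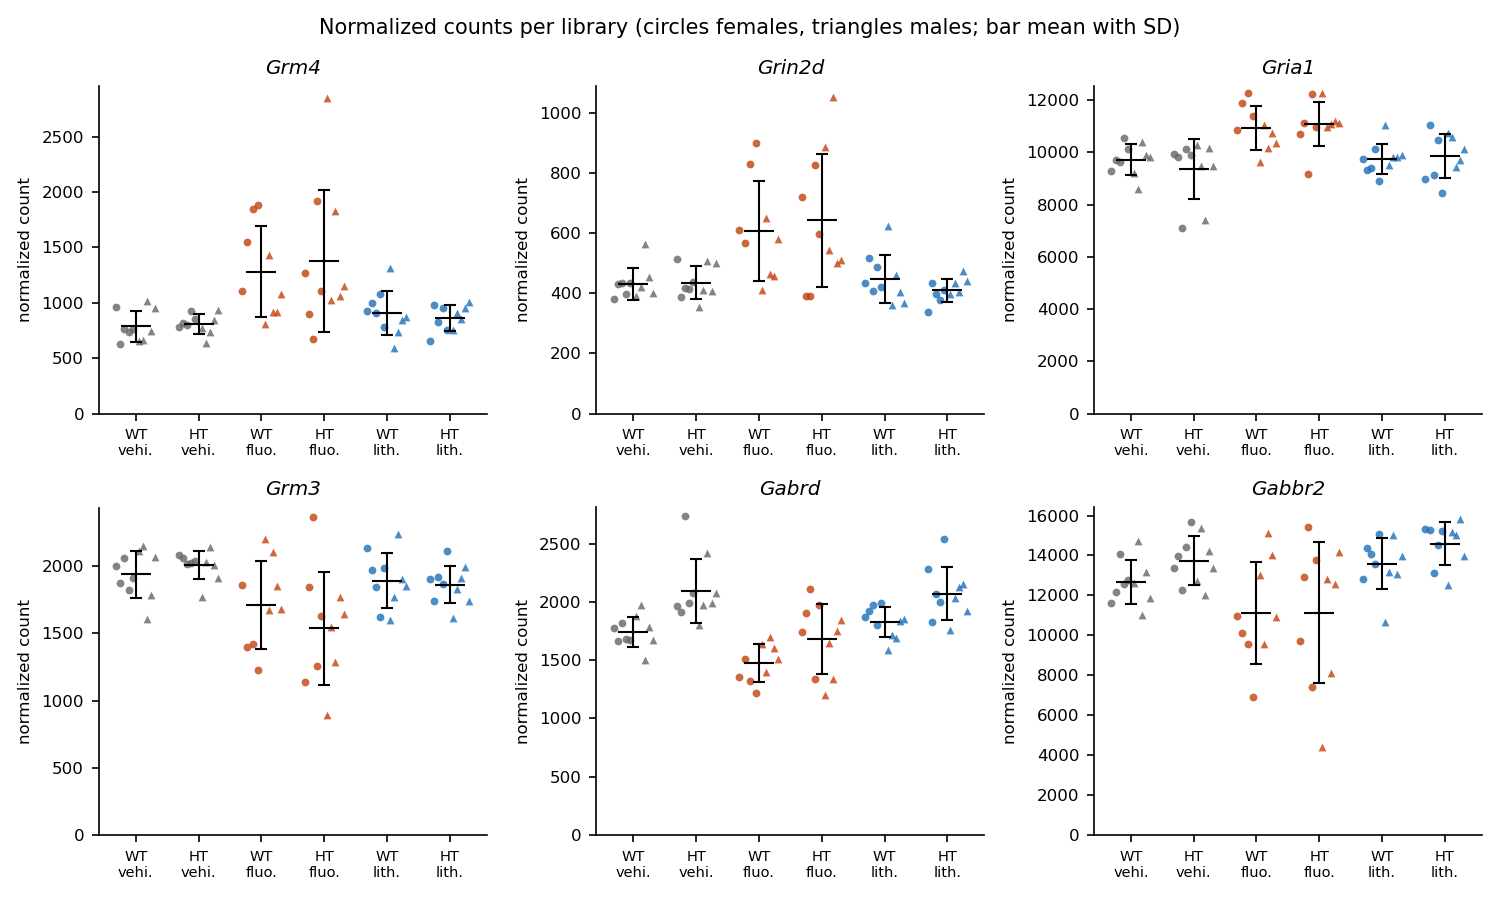
Normalized counts per library for Grm4, Grin2d, Gria1, Grm3, Gabrd and Gabbr2, from 0 on the vertical axis, by genotype and drug (vehi., vehicle; fluo., fluoxetine; lith., lithium); circles are females, triangles males, and bars show the mean with SD. Fluoxetine groups spread more widely than vehicle groups for Grm4, Grin2d, Grm3 and Gabbr2, as for Grm4 in HT libraries (SD 645 against 88.6).

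Within WT, fluoxetine was also compared in each sex. In females 6 members rose and 6 fell, against 19.8% of all genes called, 11% higher and 8.79% lower. Grm4 rose by log2 1.03 ± 0.23, Grin2d by 0.78 ± 0.18 and Grm8 by 0.42 ± 0.13 (limma adjusted p = 0.00197, 0.00308 and 0.0158). Grm4 ran from 1106 to 1887 in the 4 fluoxetine females and from 626 to 962 in the 5 vehicle females. Gabrb1 passed here, at -0.33 ± 0.12 (limma adjusted p = 0.0497), and so did Grm3, at -0.40 ± 0.13 (limma adjusted p = 0.0341). In males no member passed, nor did any gene (0%), and 0 members had an unadjusted p under 0.05, against 4.8% of all tested genes. By edgeR and by DESeq2 the count of called members was also 0. Grm4 had a log2 difference of 0.35 in males. A difference between the sexes was not tested. Bulb markers were higher by a median of 4.39 in WT females, where all 8 were called, and of 2.19 in WT males, where 0 were. Without WT fluoxetine female 4 the count of called members was 2 in WT females and 2 in WT of both sexes; without female 3 it was 5 and 5. In WT of both sexes it was 5 without WT fluoxetine male 2 and 6 without WT vehicle male 2. Shares of all genes called with these libraries left out are not given here.

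Within groups, the levels of many members moved with the bulb marker level, the mean of the 8 markers' standardized log2 values. Slopes came from a fit that took bulb and striatal levels as 2 terms beside the group means. On the bulb level 21 of the 33 members had a slope that passed, 6 positive and 15 negative. Of all genes 31.2% did (15.1% positive and 16.1% negative). The steepest were Grm4 (0.40 ± 0.04 log2 per unit), Gabbr2 (-0.24 ± 0.05), Grin2d (0.23 ± 0.04), Grm3 (-0.19 ± 0.03) and Grin2a (-0.18 ± 0.04). On the striatal level 2 of 33 passed, Grik4 (0.11 ± 0.03) and Grm2 (-0.16 ± 0.04), against 4.18% of all genes (2.71% positive and 1.47% negative).

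**Figure D4:**
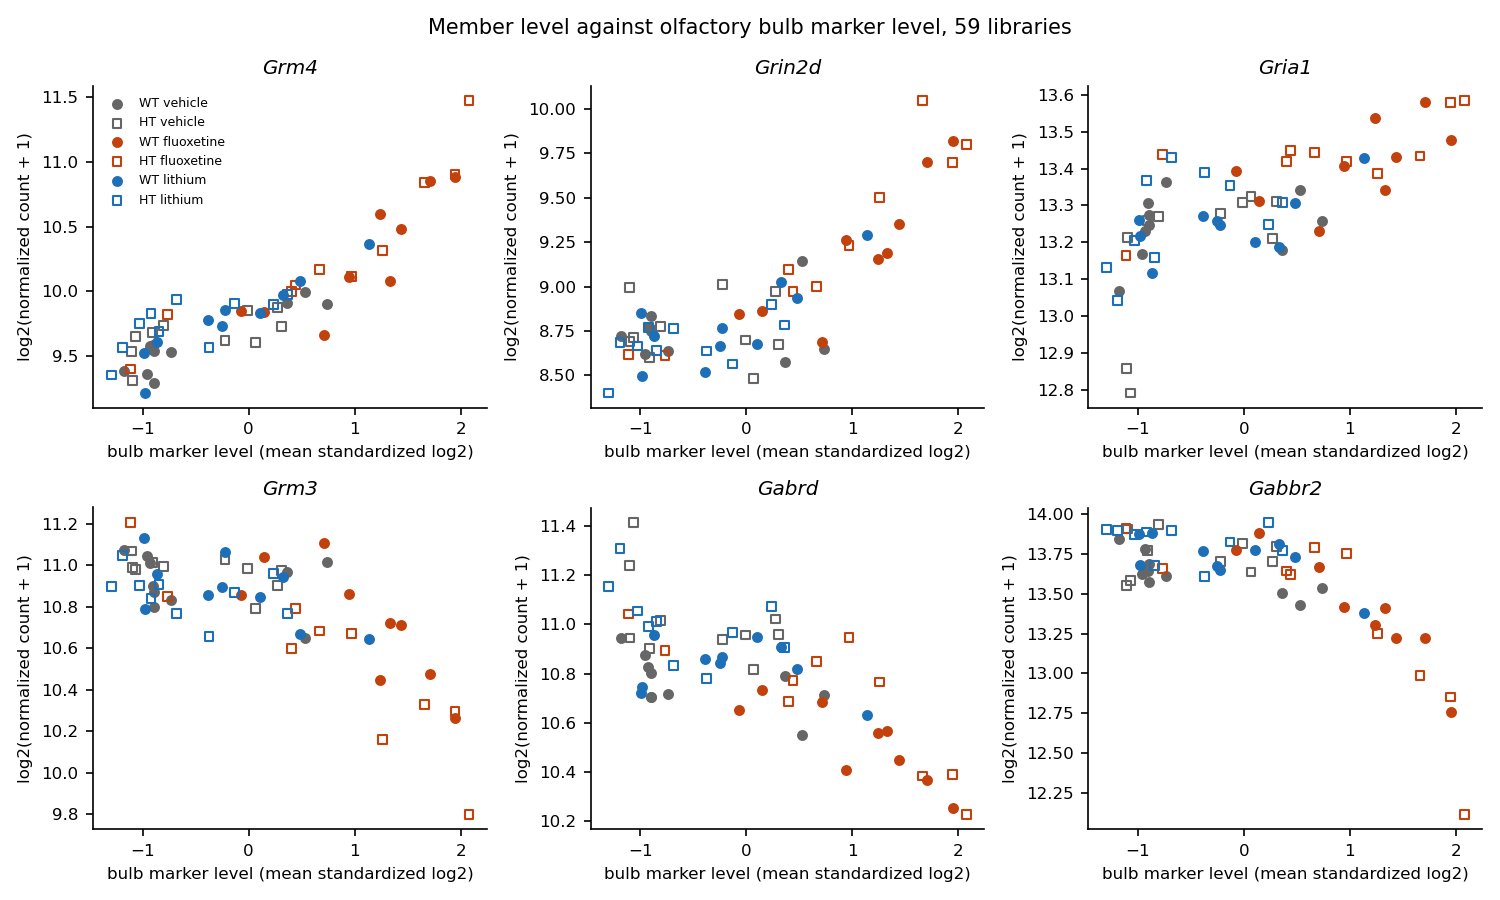
Level of 6 members, as log2(normalized count + 1), against the bulb marker level (mean standardized log2) in the 59 libraries; filled circles are WT, open squares HT, and colour gives the drug. Grm4, Grin2d and Gria1 are higher, and Grm3, Gabrd and Gabbr2 lower, in the libraries with the highest bulb level.

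With the bulb level as a term no member was called for fluoxetine in HT (lowest limma adjusted p = 0.0549), while 6.29% of all genes still were, and none in WT (lowest limma adjusted p = 0.697), with 0.139% of all genes. Of the 16 members called in HT without the term, 16 kept their sign with it and all were smaller, with a median size of 0.16 against 0.34. In WT 9 of 10 kept their sign, and Grik4 stood at 0.01. Unadjusted, 10 members in HT and 0 in WT had p under 0.05. Grm4 stood at 0.17 ± 0.09 in HT with the term and at 0.07 ± 0.10 in WT, whereas Gabrg1 stood at -0.33 ± 0.11 and -0.24 ± 0.13, near its values without it. In the 5 HT fluoxetine libraries whose bulb level was no higher than in the highest vehicle library, Grm4 ran from 673 to 1149 and Gabbr2 from 12582 to 15425. In the other 5 they ran from 1105 to 2846 and from 4432 to 13792. A fit without all libraries above that level, which kept 5 of the 10 HT fluoxetine libraries, called 2 members for fluoxetine in HT, 0 of them among the 16. It also kept HT fluoxetine female 2 and male 2 and HT vehicle female 3 and male 3, all among the 5 highest in striatal markers. Of those 16, 15 kept their sign and 15 were smaller, with a median size of 0.16 against 0.34 and a median SE of 0.08 against 0.09, and 5 had an unadjusted p under 0.05. Gabbr1, at 0.001, had the other sign, and Grik3 was as large as before (0.28 ± 0.13). Gabrg1, near its earlier value with the bulb term, stood at -0.16 ± 0.11 in this fit, against -0.38 ± 0.10 with all libraries. The 2 called members were Grin1, at 0.24 on the log2 scale (limma adjusted p = 0.0418), and Grin2b, at 0.40 (limma adjusted p = 0.00251), named after their values were seen. The share of all genes called in the fit without the libraries above that level is not given here, so these 2 calls are not set against a background. Markers of other cell types were read beside the shares of all genes called, 14.6% higher and 14.6% lower in HT and 8.81% higher and 6.08% lower in WT. Of 10 cortical excitatory markers 4 were lower in HT and 1 in WT; their summed level was 62980 to 80649 in HT vehicle, 33108 to 74552 in HT fluoxetine and 43592 to 77548 in WT fluoxetine libraries. Of 7 microglial markers 5 were lower in HT and 4 in WT, with summed levels of 9108 to 13509 in HT vehicle and 7335 to 9618 in HT fluoxetine, 9421 to 10325 in WT vehicle and 7601 to 9693 in WT fluoxetine libraries. Of 5 cerebellar granule cell markers 2 were higher in each genotype, with summed levels of 811 to 1607 in HT vehicle and 1071 to 3913 in HT fluoxetine, 974 to 1606 in WT vehicle and 1235 to 3459 in WT fluoxetine libraries. Their means in WT vehicle and WT fluoxetine libraries were 586 and 1367 for Zic1 and 239 and 329 for Zic2. For Neurod1 they were 373 and 363, for Fat2 38.9 and 40.8 and for Cbln3 29.5 and 16.0. Astrocyte markers (8) had 3 lower in HT and 1 higher and 1 lower in WT, and endothelial and mural markers (8) had 3 lower in HT and 1 in WT. Of 10 interneuron markers 4 were higher and 3 lower in HT and 4 higher and 2 lower in WT, and of 12 striatal markers 1 was higher and 1 lower in HT and 1 higher in WT. Thalamic markers (6) had 1 higher and 2 lower in HT and 1 lower in WT, oligodendrocyte precursor markers (6) had 1 lower in each, and of 8 oligodendrocyte markers 0 passed in either. The part of these markers in the members' changes was not tested. Without the 5 libraries highest in striatal markers 22 members were called in HT, 13 of them among the 16. The share of all genes called in that fit is not given here either.

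**Figure D5:**
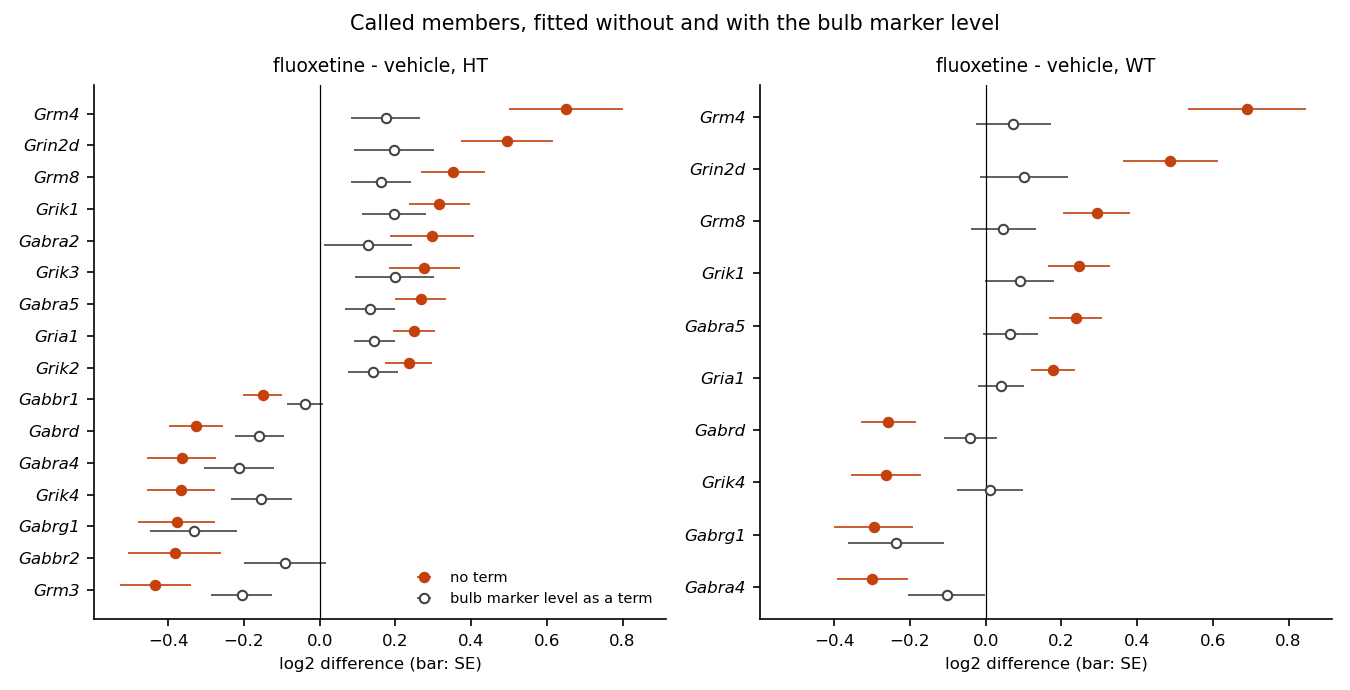
Log2 differences (points) with SE (bars) of the members called for fluoxetine against vehicle, 16 in HT and 10 in WT, fitted without (filled) and with (open) the bulb marker level as a term. Open points lie nearer 0 for all members shown.

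The sequences before the start sites of the called members with the largest rise and the largest fall in HT fluoxetine libraries, among those for which RefSeq promoters (GRCm38.p6) were at hand and lay clear of annotated exons, are shown because Myt1l binds a core of the letters AAGTT; capitals mark that core or its reverse complement AACTT. Gabra2 and Grm3 both lie on the minus strand of chromosome 5, their stretches at 71095850 to 71096099 and at 9725353 to 9725602, each read 5′ to 3′ over the 250 bases before RefSeq's start.
Gabra2: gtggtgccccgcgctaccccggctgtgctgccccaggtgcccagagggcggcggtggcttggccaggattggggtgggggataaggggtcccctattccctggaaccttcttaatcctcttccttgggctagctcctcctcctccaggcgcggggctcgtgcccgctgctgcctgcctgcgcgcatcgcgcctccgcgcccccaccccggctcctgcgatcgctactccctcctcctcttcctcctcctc
Grm3: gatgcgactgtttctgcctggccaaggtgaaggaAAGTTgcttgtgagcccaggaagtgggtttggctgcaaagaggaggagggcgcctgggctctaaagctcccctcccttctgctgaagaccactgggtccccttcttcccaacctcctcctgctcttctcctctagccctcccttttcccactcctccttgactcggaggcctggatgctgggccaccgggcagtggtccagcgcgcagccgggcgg
Grm3 holds 1 match and Gabra2 none. The core was present on either strand in 35.3% of 32851 promoters of this length and in 4 of the 23 members with an entry, of which 14 were clear of exons annotated in GENCODE M21. A match of these letters describes the window and is no evidence of binding.

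Under fluoxetine, 2 of the 3 ratios fell in WT and 1 of those in HT as well. The Grin2a to Grin2b ratio ran from 0.206 (lowest) through 0.303 (median) to 0.341 (highest) in HT fluoxetine libraries, and all 10 lay below the HT vehicle mean of 0.355. The log2 difference was -0.29 in HT (exact permutation p = 0.0018, adjusted p = 0.0108) and -0.19 in WT (adjusted p = 0.00803), where the ratio ran from 0.251 through 0.276 to 0.325. By sex, the HT difference was -0.18 in females and -0.40 in males, neither called (exact permutation adjusted p = 0.331 and 0.238), and the WT difference was -0.29 in females and -0.0856 in males (adjusted p = 0.0476 and 0.498). With the bulb level as a term the differences were -0.20 and -0.07, without a test, and without the 5 striatal-high libraries the HT value was -0.25 (exact permutation adjusted p = 0.05, no longer under the threshold). Gria2 to Gria1 fell in WT, by 0.20 on the log2 scale (exact permutation adjusted p = 0.0231), with a difference of -0.07 in the fit that held the bulb level, and had a difference of -0.11 in HT (adjusted p = 0.372). Grin1 to Grin3a passed in neither, with differences of 0.08 in HT and 0.05 in WT (exact permutation adjusted p = 0.596 and 0.677). HT and WT fluoxetine differences are each taken against that genotype's own vehicle libraries.

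Lithium against vehicle asks the same of the second drug. No member was called in HT or in WT, where 2.84% and 1.61% of all genes were. Unadjusted, 1 of 33 members in HT and 1 in WT had p under 0.05, against 17.3% and 14.3% of all tested genes. By edgeR and by DESeq2 the count of called members was 0 in both. Grin2c, an NMDA subunit common in astrocytes and the cerebellum, came closest in HT. It ran from 855 through 1216 to 1743 with lithium and from 1224 through 1417 to 2132 with vehicle, with 8 of 10 libraries below the vehicle mean and a log2 difference of -0.28 ± 0.11 (limma adjusted p = 0.147). Gabrg1 came closest in WT, from 607 through 817 to 962 with lithium and from 722 through 1003 to 1351 with vehicle. All 10 lithium libraries were below the vehicle mean, and the log2 difference was -0.32 ± 0.10 (limma adjusted p = 0.0972). In HT its difference was -0.19 ± 0.10. Grik5 in WT stood at 0.16 ± 0.09 and Gabra5 in HT at 0.13 ± 0.07, neither called. Over the members the median log2 difference was 0.06 in HT, with 26 of 33 above 0, and -0.02 in WT, with 14 above 0. All tested genes had medians of 0.005 in HT and 0.0002 in WT, and their share above 0 is not given here.

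One ratio differed under lithium. Gria2 to Gria1 averaged 1.99 ± 0.169 in WT lithium and 2.21 ± 0.191 in WT vehicle libraries (SD, n = 10). All 10 lithium libraries lay below the vehicle mean, with a log2 difference of -0.16 (exact permutation p = 0.0126, adjusted p = 0.0344); leaving out 1 library ended the call in 9 of 20 cases, with adjusted p up to 0.0785. These were WT lithium female 3, male 1 and male 4 and WT vehicle females 1, 2 and 4 and males 1, 2 and 5. The Grin2a to Grin2b ratio was 0.349 ± 0.0428 in HT lithium and 0.342 ± 0.0291 in WT lithium libraries, with log2 differences from vehicle of -0.03 and 0.09 (exact permutation adjusted p = 0.773 and 0.105).

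Comparisons of genotype within a drug, of the drug effect between genotypes and of the sexes called no member. Under lithium 0.00604% of all genes differed between the genotypes, and the member with the smallest p was Gabra3, at 0.16 ± 0.06 with 9 of 10 HT libraries above the WT mean (limma adjusted p = 0.953). Gabrd stood at 0.18 ± 0.07 there. Under fluoxetine in females 0% of genes were called; Gabrd was 1813 ± 296 in HT (SD, n = 5) and 1351 ± 120 in WT (n = 4), a log2 difference of 0.41 ± 0.11 (limma adjusted p = 0.575), while bulb markers differed by a median of -2.17. The genotype by fluoxetine and genotype by lithium interactions called 0.0302% and 0% of genes; the smallest member p values belonged to Grm3 (-0.22 ± 0.13) and to Grin3a (0.20 ± 0.09). Between females and males over all groups 0.145% of genes were called, and the member differences ran from -0.08 to 0.05.

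Other genes of the glutamate and GABA system were read from 5 lists. No gene of them was called for genotype under vehicle. Counts below stand beside the 29.2% of all genes called for fluoxetine in HT and the 14.9% in WT. Over the 5 lists 29 of 63 tested genes were called in HT and 18 in WT. With the bulb level as a term the shares of all genes called were 6.29% in HT and 0.139% in WT. In that fit 6 of the 63 were called in HT, all among the 29, and 0 in WT. Those 6 were Shisa9 (0.18 ± 0.05), Cnih2 (-0.20 ± 0.06), Elfn1 (0.29 ± 0.06), Shisa7 (0.28 ± 0.05), Nlgn2 (0.25 ± 0.08) and Gabarap (-0.14 ± 0.04), of which the last 3 are anchors or auxiliary subunits of GABA receptors. Of 15 auxiliary subunits of AMPA and kainate receptors, 3 were higher and 4 lower with fluoxetine in HT, and 5 were higher and 1 lower in WT. Shisa9, which tunes AMPA receptor desensitisation, rose by log2 0.31 ± 0.05 in HT and 0.28 ± 0.05 in WT, and Cnih2, which slows AMPA channel closing, fell by 0.34 and 0.27. Of 15 anchors and auxiliary subunits of GABA receptors, 5 rose and 2 fell in HT, and 3 rose and 1 fell in WT; Gphn, the synaptic scaffold gephyrin, rose by log2 0.18 ± 0.04 in HT and 0.15 ± 0.04 in WT. Of 10 tested partners of metabotropic glutamate receptors, 2 rose and 1 fell in HT and 1 rose in WT, with Elfn1, which recruits presynaptic metabotropic receptors, at 0.38 ± 0.06 and 0.37 ± 0.06. Of 19 genes of transmitter synthesis and transport, 8 rose and 3 fell in HT and 5 rose and 2 fell in WT. Slc32a1, the vesicular GABA transporter, rose by log2 0.53 ± 0.11 in HT and 0.58 ± 0.12 in WT, and Gad2, a GABA-synthesising enzyme, by 0.35 ± 0.07 and 0.31 ± 0.07. Of 4 tested chloride channel subunits outside the rule, Gabrq, the theta subunit, rose in HT at 0.74 ± 0.21. With lithium in HT, where 2.84% of all genes were called, 1 of the 10 metabotropic receptor partners was higher. In the same comparison 1 of the 19 synthesis and transport genes was lower, and no gene of the other lists passed. They were Ncdn, which binds Grm5, higher by log2 0.30 ± 0.06, and Slc12a2, the chloride importer NKCC1, lower by 0.26.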

How the data were processed

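For every gene the authors deposited a normalized signal, which is its reads over the library's size factor. The submitters' processing notes name Salmon 0.11.2, DESeq2 1.19.11, R 3.6.0 and the GRCm38 build; counting by strand is not given in the sources used here. Values were whole multiples of 1 read within a tolerance of 0.01 of a step for 100% of values, which gave the whole reads. The design table had allowed for raw counts, and the test set out there for normalized values was used.

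Log2(normalized count + 1) of 16546 genes with a mean of at least 10 was fitted as 12 group means by limma 3.58.1 in R 4.3.3, with a trend and robust variances. Sexes had equal weight, and differences of low genes are understated by the added 1. Alternatives were edgeR 4.0.16 and DESeq2 1.42.0 on the whole reads, surrogate variables (sva 3.50.0), quantile normalization, other pseudocounts (0.5 and 5), no filter, the compared groups alone, a replicate block, marker levels as terms and each library left out. The fits without the striatal-high libraries or with low-bulb libraries alone, both marker terms together, the slopes, and the ratios and pathway genes with a bulb term were chosen after seeing the data. The fits were tested on simulated data. No 2 libraries of a group agreed within sampling noise (lowest chi-square per gene 6.72 over 116 pairs).

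Members, lists, ratios and tests were chosen with earlier results of these data known, and the bulb fits rest on that knowledge. Results for 5 members, and for the ratios that use them, are not reported here; p-values stayed adjusted over all tests made. Named were up to 10 called members with the smallest adjusted p in a comparison, the members of the ratios and, with fewer than 3 calls, the 3 smallest p values; other members named were chosen after their values were seen. From each pathway list up to 3 called genes with the smallest p could be named. Marker lists for 11 cell types or regions, all given in the results, were read as called counts and summed levels. Exon lengths and gene positions are from GENCODE M21 (GRCm38).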

Additional observations from a re-analysis of the deposited data

Results flagged for a closer look

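In groups of 9 or 10 libraries, 216 sets of log2 values were examined for a library standing apart, and 11 held one (5.09%), where chance gives about 1 in 20; 8 libraries were involved. WT vehicle male 3 stood apart most often: its Grin2a (4725) and Grin2b (16150) were the lowest of WT vehicle and its Grin2d (565) the highest. WT lithium male 1 was lowest of its group for Gabbr2 (10673) and Grik4 (567.8). HT vehicle female 3 had the highest Grin2a to Grin2b ratio (0.455, with 0.322 to 0.374 in the other HT vehicle libraries), and without it the genotype difference of that ratio was 0.10.

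The remaining 5 were single values. HT fluoxetine female 3 was lowest for Gria1 (9186), WT lithium female 3 for Gria2 (15585), WT fluoxetine female 4 for Grik4 (393) and HT lithium female 3 for Grm2 (1883). HT lithium female 5 was highest for Grik5 (10765).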

How the results depend on the processing

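Counts of called members for fluoxetine stayed within 1.5 times under edgeR, DESeq2, quantile normalization, both pseudocounts and no filter; edgeR on the whole reads called 15 in HT, 10 in WT and 12 in WT females. Fitting the compared groups alone gave 12 in HT, 14 in WT and 17 in WT females. Replicate numbers did not pair libraries (10 of 49 same-numbered pairs correlated above 0.1, median 0.0395); a fit with the replicate block called 16 members in HT and 9 in WT, and in the replicate block the ratio calls numbered 6, of which 5 were among the 6 made without it; Grin1 to Grin3a between genotypes was lost, and Gria2 to Gria1 between genotypes was gained. The bulb level as a term left 0 in HT, WT and WT females; bulb and striatal terms together left 1 (Grin1, 0.25), 0 and 0. The term for the division of fluoxetine libraries (HT of both sexes and WT females against WT males) left 0 in HT and 0 in WT. All HT fluoxetine libraries fall on the same side of it, so only WT fluoxetine females and males set its size. In that fit the HT value has this WT sex difference taken from it, and the WT value rests on fluoxetine males. These counts therefore cannot show whether the calls made without the term hold. Surrogate variables, the first of which followed the bulb level, left 2 in HT (Grin1 and Grin2b), 1 in WT (Grin2b) and 1 in WT females, and gave 2 for genotype under vehicle (Gabrd and Gabra3), 1 for lithium in HT and 2 for genotype under lithium; 0 of these were among the members called without them. Without the 5 striatal-high libraries 22 were called in HT, and 2 with low-bulb libraries alone. Except for the bulb term in HT and WT, shares of all genes called in these fits are not given here. The counts of members are therefore not set against a background.

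Signs turned with surrogate variables for Gabrd in HT (0.00537) and, in WT, for Grin2d (-0.0646), Gabrd (0.0519), Gabra4 (0.0350) and Grik4 (0.0791), in WT females for Grin2d (-0.0358), Gabra4 (0.0669), Gabrd (0.0955) and Grm3 (0.137), and in HT lithium for Grin2b (-0.139). With the bulb term Grik4 in WT turned (0.0109). With the division term in HT, Grm3 (0.0104), Grm4 (-0.0458), Grm8 (-0.0105), Grin2d (-0.0867) and Gabra4 (0.0723) turned. These values are not drug differences in HT, because the term takes from them the difference between WT fluoxetine females and males. The cause of the other turns was not tested.

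Ratio calls numbered 1 in females alone and 0 in males alone. Complete separation of the groups, as for Grin2a to Grin2b with fluoxetine in HT males, did not pass the adjustment there. For Grin2a to Grin2b the genotype difference was 0.16 in females and 0.14 in males, fluoxetine in HT -0.18 and -0.40, fluoxetine in WT -0.0856 in males, none of these called; lithium in HT was 0.0457 in females. Without the 5 striatal-high libraries fluoxetine in HT gave -0.25 (adjusted p = 0.05) and lithium in HT 0.0277.

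With 1 library left out, counts ran from 12 to 17 in HT fluoxetine, 2 to 11 in WT, 2 to 14 in WT females, 0 to 1 for lithium in HT and 0 to 1 for genotype under fluoxetine in females. Shares of all genes are not given for these counts either. The Grin2a to Grin2b differences ran from 0.10 to 0.16 (genotype), -0.32 to -0.24 (fluoxetine, HT), -0.21 to -0.17 (fluoxetine, WT) and -0.0570 to 0.0171 (lithium, HT).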
